A study of Mus musculus with 10 samples.

Results

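The Sprouty and Spred genes were examined in sarcomas of 2 mouse models. Of the 7 mouse genes of these names (Spry1 to Spry4 and Spred1 to Spred3), 6 were found by symbol among the 56750 features of the count table, 3 Sprouty and 3 Spred genes. No row matched Spry3, which was not analysed here. All 6 passed the filter on low counts.

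Sprouty and Spred proteins are inducible brakes on signaling from receptor tyrosine kinases to the kinase ERK. ERK activity raises the transcription of several of them, and the proteins then act upstream, Sprouty proteins through partners such as Grb2 and Cbl, and Spred proteins by bringing the RAS inhibitor neurofibromin (Nf1) to the membrane. Capicua (CIC) is a transcriptional repressor that ERK signaling inactivates, and genes of this feedback system are among its known targets. In CIC::DUX4 sarcoma (CDS) the fusion protein joins CIC to the activating end of DUX4 and acts as an activator at sites that CIC represses.

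The dFLEx CDS group held 3 tumors (170019, 170024 and 170025) with the genotype label dFLEx CDS +/-. In these mice a CIC::DUX4 construct with an HA tag sits at the Rosa26 locus under the CAG promoter, and 2 of its exons are inverted into frame only after both Cre and FLPE act. The recombinase plasmids were electroporated into the gastrocnemius, so any cell of the muscle that took up both could recombine. The KP group held 2 tumors (3800 and 3802) of the KP model, whose label includes p53fl/fl, and thus differed from the dFLEx CDS group in the driver, in p53 and in the way in which the allele was activated. Ages of the sequenced mice are not given in the labels, and no normal muscle was compared. RNA was split into duplicate libraries, of which 9 from the 5 tumors had a count column (6 dFLEx CDS, 3 KP, with 1 for tumor 3802), and duplicates were summed because the tumor is the replicate.

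Library totals ran from 20503474 to 46302223 counts, so that 3 counts, the limit for a gene with none, corresponded to 0.0648 to 0.146 CPM (counts relative to the total of a library). The transgene stood at 89.3 and 89.2 CPM in the libraries of 170019, at 188 and 197 CPM in those of 170024, and at 407 and 412 CPM in those of 170025. It had no count in 3800 and 6 counts (0.293 CPM) in 3802. Duplicates agreed closely for the family: the higher divided by the lower CPM ran from 1.00 to 1.15 over 24 pairs, with a median of 1.03. In bulk tumors, fewer cells of a type and less RNA per cell cannot be told apart.

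CIC binds DNA at an octamer with the letters TGAATGAA, TGAATGGA, TCAATGAA or TCAATGGA, and these were searched on both strands. Starts of genes differ between annotations, and each position below is counted from the start named beside it, which need not be the end of the gene's span in the count table. The 250 bases before the RefSeq start of Spred3 are shown because one of these octamers, in capitals, lies at their end (RefSeq promoter window GRCm38.p6 chr7:29168598-29168897, minus strand, of which the 50 bases after the start are left out; an exact match lies at GRCm39 chr7:28868023-28868322).
Spred3: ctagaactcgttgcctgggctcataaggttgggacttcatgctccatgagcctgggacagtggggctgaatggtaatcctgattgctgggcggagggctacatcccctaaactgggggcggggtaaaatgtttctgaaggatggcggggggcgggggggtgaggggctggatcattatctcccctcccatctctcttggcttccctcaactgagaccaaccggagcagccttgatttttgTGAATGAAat

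The octamer of Spred3 began at position -10 from the RefSeq start, which is also the start of the canonical GENCODE transcript (base 28868072 of GRCm39; octamer at chr7:28868075-28868082). The span of Spred3 in the count table begins farther upstream, at base 28869836, so the octamer lies inside that span. RefSeq windows of 300 bases, from 250 before to 50 after the start, were at hand for 5 of the 6 genes, and the second with an octamer was Spry2. Its octamer read TCAATGAA on the opposite strand, at position -54 of the RefSeq start (base 106134253, where the span in the count table begins too) and at +486 of the canonical GENCODE start (base 106134792; octamer at GRCm39 chr14:106134300-106134307). The windows of Spry1, Spred1 and Spred2 held none of the 4 octamers, and 3.84% of 32851 RefSeq promoter windows held one. In 2000 bases centered on the canonical GENCODE start, Spred1 held 1 octamer at -879 of base 116951540, which lies upstream of the span in the count table (octamer at GRCm39 chr2:116950661-116950668), Spry4 held 1, and Spry1 and Spred2 held 0. Of 21770 such windows at protein-coding genes, 25.7% held at least 1, so that a match is common and describes letters only. The sites of the 3 genes are shown with their surroundings for comparison, read along the gene, with the octamer in capitals.
Spred3: cttgatttttgTGAATGAAatgctccttgt
Spry2: tcggcctcttgTTCATTGAgaaaaaaaaaa
Spred1: taccccgggctTCAATGGAagccgttctcc

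Spred3 showed the widest gap between the models. Its protein is the family member that lacks a working Kit-binding domain but keeps the domain shared with Sprouty proteins. Spred3 (ENSMUSG00000037239, GRCm39 chr7:28858254-28869836, minus strand, 6218 exon bases) was at 108 CPM in 170019, 142 in 170024 and 396 in 170025, and at 16.4 in 3800 and 10.1 in 3802. Every dFLEx CDS tumor was above both KP tumors, and the lowest dFLEx CDS level was 6.56 times the highest KP level. The means were 215 ± 157 CPM (SD, n = 3) and 13.3 ± 4.47 CPM (SD, n = 2), and the fitted log2 fold change was 4.02 (SE 0.85, 95% interval 2.06 to 5.98), or 16.2-fold. Over all genes tested, edgeR's quasi-likelihood test on tumor sums gave an unadjusted p of 0.00153 and a Benjamini-Hochberg adjusted p of 0.122, which misses the threshold of 0.05. With DESeq2, the tool the study names, the same tumor sums gave an adjusted p of 4.80e-06. With no filter on low counts edgeR itself gave 0.00135, so the call rests on the fit. Over 18 alternative fits the adjusted p ran from 4.26e-15 (DESeq2) to 0.278 (edgeR without tumor 170024). The lowest value came from libraries taken as independent samples, which counts duplicates of a tumor as replicates. The log2 fold change of Spred3 was 3.23 without tumor 170025. The study itself names Spred3 as a fusion target expressed in these tumors, and elsewhere counts Spred1 and Spred2 among the target genes, so the Spred genes are not independent examples.

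Ggn (gametogenetin), which lies over Spred3 on the opposite strand, had a like pattern. Ggn was at 11.5, 16.6 and 50.9 CPM in the 3 dFLEx CDS tumors and at 2.42 and 0.813 CPM in the KP tumors, with a log2 fold change of 4.01 (SE 1.00, edgeR adjusted p = 0.180). Strand was ignored in the counting and reads over both genes were left out, so reads of the partners cannot be told apart. Fam98c, 2114 bases from Spred3, stood at 16.9 ± 6.63 CPM (SD, n = 3) in dFLEx CDS and 2.74 ± 0.550 CPM (SD, n = 2) in KP tumors (log2 fold change 2.62, SE 0.69, edgeR adjusted p = 0.202). Psmd8, 3776 bases away on the other side, had a log2 fold change of 0.83 (SE 0.62, edgeR adjusted p = 0.808).

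Spry4 was the Sprouty gene with the largest difference. Spry4 inhibits RAS activation by growth factor receptors and is widely used as a readout of ERK activity. Spry4 (ENSMUSG00000024427, 4755 exon bases) was at 118, 199 and 331 CPM in 170019, 170024 and 170025, and at 75.1 and 38.8 CPM in 3800 and 3802. The groups did not overlap. The means were 216 ± 107 CPM (SD, n = 3) and 56.9 ± 25.7 CPM (SD, n = 2). The log2 fold change was 1.93 (SE 0.69, 95% interval 0.33 to 3.52), with an unadjusted p of 0.0241 and an adjusted p of 0.362 in edgeR. It was 2.65 on the log2 scale without tumor 3800.

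Spry2 is the best studied Sprouty protein and binds Cbl and Grb2. It showed the least spread within each group after TMM scaling. Spry2 (ENSMUSG00000022114, GRCm39 chr14:106129381-106134253, minus strand, 2087 exon bases) was at 94.3, 100.7 and 130.8 CPM in the dFLEx CDS tumors and at 67.0 and 69.7 CPM in the KP tumors. The groups did not overlap after TMM scaling, with means of 108.6 ± 19.5 CPM (SD, n = 3) and 68.3 ± 1.96 CPM (SD, n = 2). The log2 fold change was 0.67 (SE 0.53, 95% interval -0.56 to 1.90), and the adjusted p was 0.827 in edgeR. Scaled by library totals the groups overlapped, with 3802 at 84.1 CPM and 170019 at 79.95 CPM. With upper quartile scaling 3802 (104.3 CPM) was above 170024 and 170025 (100.5 and 96.1 CPM). The KP tumors were then far apart, with 3800 at 50.6 CPM.

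Spry1, known for restraining FGF and RET signaling and for its part in muscle stem cell quiescence, was the only family member with a negative fold change. Spry1 (ENSMUSG00000037211, GRCm39 chr3:37694096-37698747, plus strand, 2906 exon bases) was at 33.4, 49.9 and 68.5 CPM in the dFLEx CDS tumors and at 105.2 and 36.8 CPM in the KP tumors. The KP levels lay on both sides of the dFLEx CDS mean of 50.6 ± 17.6 CPM (SD, n = 3). The log2 fold change was -0.49 (SE 0.66, 95% interval -2.01 to 1.03, edgeR adjusted p = 0.908), and without tumor 3800 it was 0.63.

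Spred1 and Spred2 were the genes with the most spread inside both groups. Spred1, the neurofibromin partner whose loss causes Legius syndrome in humans (ENSMUSG00000027351, GRCm39 chr2:116951855-117012760, plus strand, 6784 exon bases), was at 128, 155 and 489 CPM in the dFLEx CDS tumors and at 159 and 36.2 CPM in the KP tumors. Spred2, which also recruits neurofibromin (ENSMUSG00000045671, GRCm39 chr11:19874375-19974026, plus strand, 4619 exon bases), was at 49.0, 96.2 and 448 CPM in the dFLEx CDS tumors and at 124 and 14.9 CPM in the KP tumors. For each of them 3800 was above 2 dFLEx CDS tumors, 170025 was highest and 3802 lowest. Spred2 differed 9.14-fold between the highest and lowest dFLEx CDS tumor and 8.33-fold between the KP tumors, and Spred1 differed 3.82-fold and 4.39-fold. The log2 fold changes were 1.40 for Spred1 (SE 0.89, 95% interval -0.66 to 3.46, edgeR adjusted p = 0.736) and 1.51 for Spred2 (SE 1.18, 95% interval -1.21 to 4.23, edgeR adjusted p = 0.820). Without tumor 170025 they were 0.54 and 0.07, and without tumor 3800 they were 3.01 and 3.91.

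**Figure D1:**
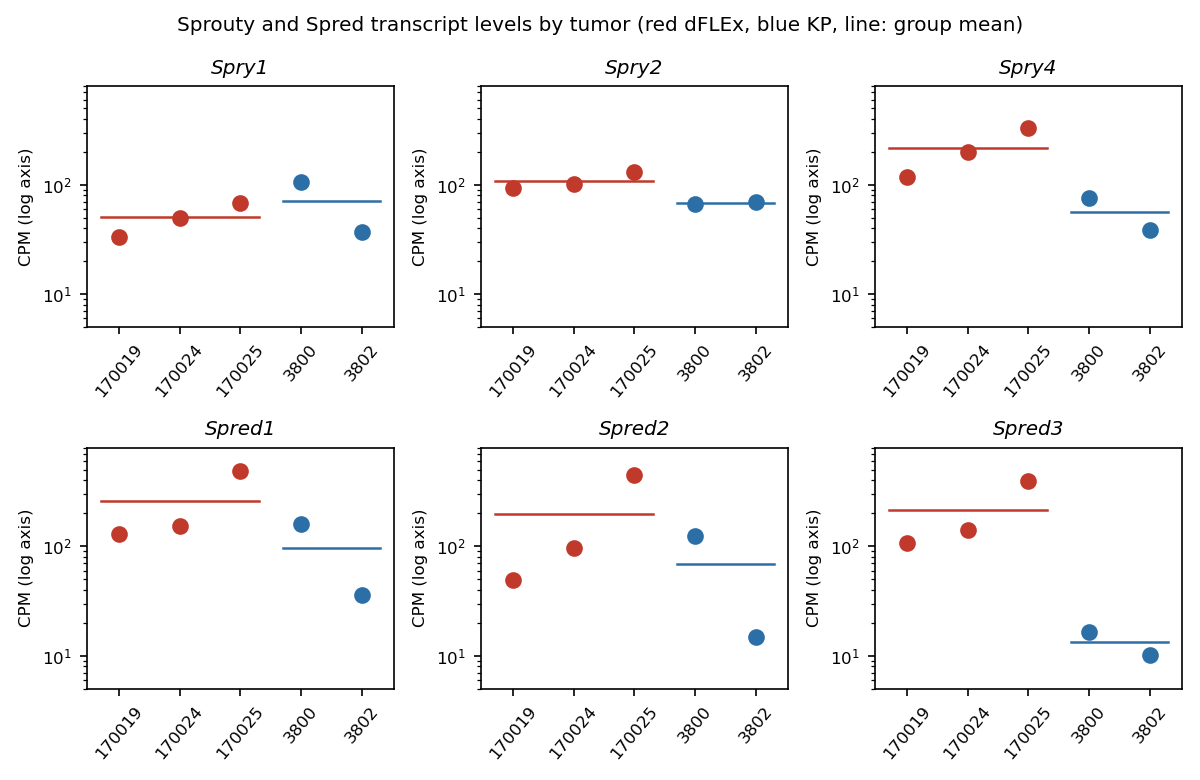
Level of each of the 6 genes in each tumor, in CPM on a log axis (dFLEx CDS tumors red, KP tumors blue, lines at the group means). For Spred3 the dFLEx CDS tumors sit between 108 and 396 CPM and the KP tumors at 16.4 and 10.1 CPM, whereas for Spry1, Spred1 and Spred2 tumor 3800 lies within or above the dFLEx CDS range.

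Of the 6 genes, edgeR on tumor sums called 0 at an adjusted p under 0.05, against 0.182% of the 24743 genes tested (25 higher and 20 lower in dFLEx CDS). At an unadjusted p under 0.05, 2 of the 6 (Spred3 and Spry4) were higher in dFLEx CDS, against 5.65% of all genes. In 3 of 6 (Spry2, Spry4 and Spred3) every dFLEx CDS tumor was above every KP tumor, against 13.7% of all genes. In 0 of 6 every dFLEx CDS tumor was below, against 11.7% of all genes. Scaled by library totals, every dFLEx CDS tumor was above for 2 of 6 (Spry4 and Spred3) against 9.99% of all genes. With upper quartile scaling this was so for 3 of 6 (Spry4, Spred1 and Spred3) against 11.4%. The median log2 fold change was 1.46 over the 6 genes and -0.18 over all genes tested. DESeq2 on tumor sums, and limma-voom on libraries with a random effect for tumor, each called 1 of the 6 (Spred3). When the 9 libraries were treated as independent, edgeR called 2 (Spry4 and Spred3) and DESeq2 called 3 (Spry2 as well), but these fits count duplicates of a tumor as replicates, and edgeR then called 3344 genes in all.

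**Figure D2:**
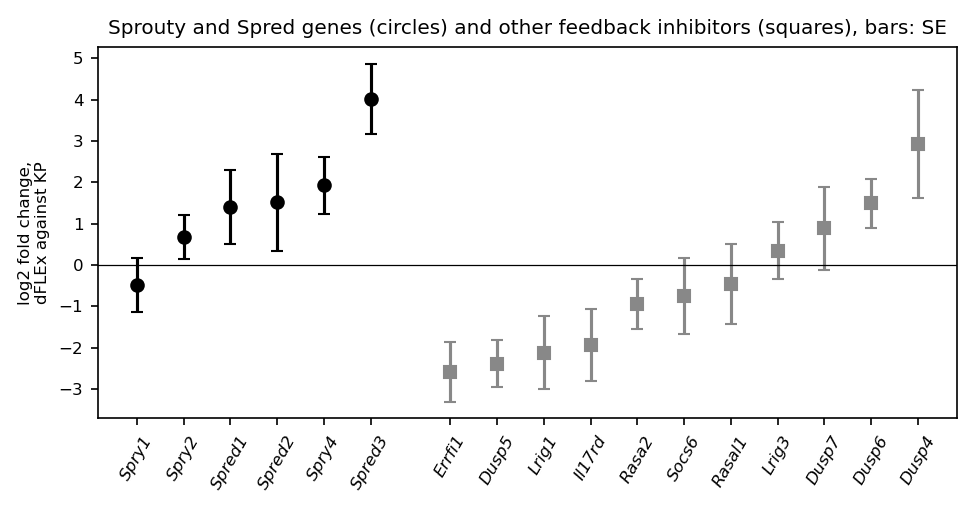
Log2 fold change (dFLEx CDS against KP, y axis) with its SE for the 6 Sprouty and Spred genes (black circles) and 11 other feedback inhibitors (gray squares). The family runs from -0.49 for Spry1 to 4.02 for Spred3, and the other inhibitors from -2.59 for Errfi1 to 2.93 for Dusp4.

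Within the dFLEx CDS group all 6 genes were lowest in 170019 and highest in 170025, and for 5 of them 170025 was also the highest of the 5 tumors, against 19.4% of all genes. This is also the order of the transgene, which was 2.15 times the level of 170019 in 170024 and 4.58 times in 170025. The family members were 1.07 to 1.96 times their level of 170019 in 170024 and 1.39 to 9.14 times in 170025. Among all genes tested, 29.0% followed this order, and the same order held for 6 of 6 family members. With upper quartile scaling the order held for 4 of 6 members, and 4 of 6 were highest in 170025. With 3 tumors this is a description. In the KP group, which lacks the transgene, 5 of 6 members were higher in 3800 than in 3802, with Spry2 the exception, against 46.3% of all genes; with upper quartile scaling it was 3 of 6.

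Exon length set the same tumors apart. For 8175 genes with at least 4000 exon bases, the median deviation from the gene's mean over tumors was, on the log2 scale, 0.58 in 170025 and 0.53 in 3800, but -0.47 in 170019, -0.08 in 170024 and -0.55 in 3802. For 2544 genes under 2000 bases it was -0.57 in 170025 and -0.58 in 3800, and 0.72 in 170019. Spry4, Spred1, Spred2 and Spred3 all have more than 4000 exon bases, and Spry1 and Spry2 fewer. When the trend of each tumor with exon length and GC content was removed, an alternative chosen after seeing the data, the Spred3 levels became 134, 130 and 278 CPM against 15.3 and 13.9 CPM. The log2 fold change of Spred3 was then 3.63 (SE 0.58, edgeR adjusted p = 0.0365), which passed the threshold. Under the same correction the Spred1 levels became 193, 180 and 326 CPM against 97.5 and 50.6 CPM, which no longer overlapped. Spry2 turned to overlap, at 79.7, 88.8 and 134.6 CPM against 74.6 and 81.7 CPM. Spry4 remained apart at 131, 181 and 248 CPM against 72.3 and 53.4 CPM, while Spred2 still overlapped, at 54.6, 89.5 and 337 CPM against 115.5 and 20.5 CPM. The order of the transgene then held for 4 of 6 members, since 170019 was above 170024 for Spred1 and Spred3.

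**Figure D3:**
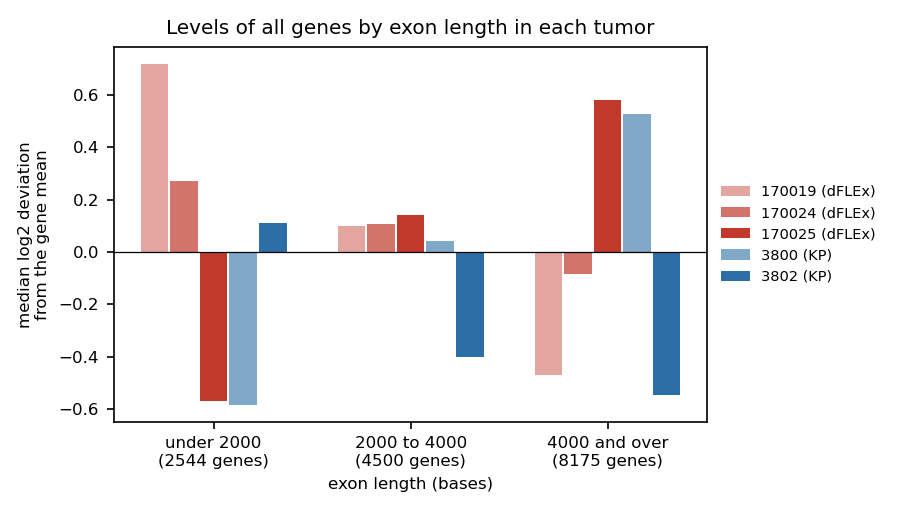
Median deviation of genes averaging 1 CPM or more from their own mean over tumors (log2, y axis), in 3 classes of exon length, for each tumor (dFLEx CDS red shades, KP blue shades). In the longest class 170025 and 3800 stand at 0.58 and 0.53 while 170019 and 3802 stand at -0.47 and -0.55.

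Levels of different genes were compared per kilobase of exon (RPKM), without removing the trend of each tumor with exon length. The 6 genes summed to 128.4, 173.9 and 388.7 RPKM in the dFLEx CDS tumors and to 136.9 and 64.4 RPKM in 3800 and 3802, so that the totals of the groups overlapped. What filled the total differed from tumor to tumor. Spry2 was the most abundant member in 170019 (45.2 RPKM), 170024 (48.2 RPKM) and 3802 (33.4 RPKM), Spred2 in 170025 (97.0 RPKM) and Spry1 in 3800 (36.2 RPKM). Spred3 made up 13.5%, 13.2% and 16.4% of the family total in the dFLEx CDS tumors and 1.93% and 2.53% in the KP tumors. It was the least abundant of the 6 in both KP tumors and ranked 3 or 4 in the dFLEx CDS tumors. Spry1 made up 8.94%, 9.88% and 6.06% in dFLEx CDS and 26.4% and 19.7% in KP tumors.

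**Figure D4:**
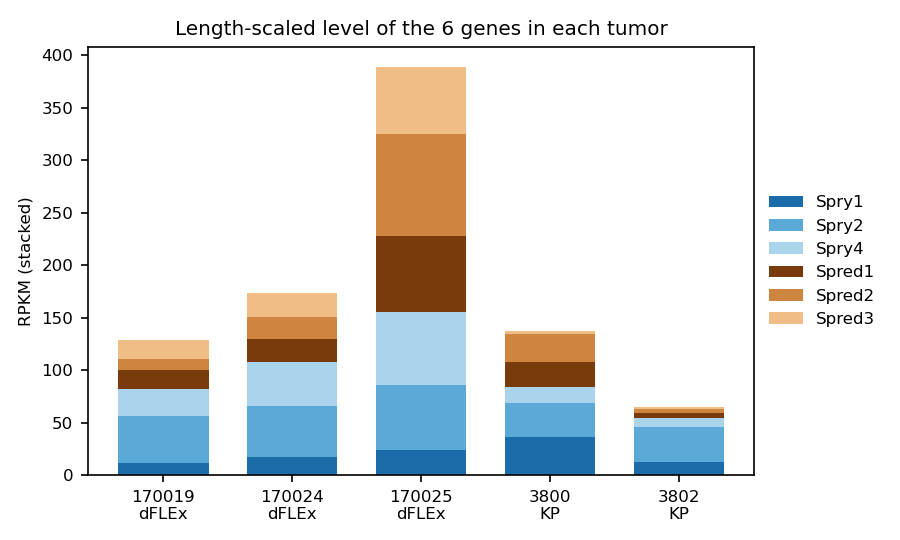
Stacked RPKM (y axis) of the 6 genes in each tumor (x axis, with its group). The bars reach 128.4, 173.9 and 388.7 RPKM in the dFLEx CDS tumors and 136.9 and 64.4 RPKM in the KP tumors, and the Spred3 segment is 1.93% and 2.53% of the KP bars.

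Ratios of 2 genes within a tumor do not depend on the scaling of its library. They can still move with the trend of each tumor with exon length, which was not removed here. Spry1 and Spry2 have fewer than 4000 exon bases and the rest of the family more. Spred3 stood to Spred1 in RPKM as 0.918, 1.00 and 0.882 in the dFLEx CDS tumors and as 0.113 and 0.305 in the KP tumors. Spry4 stood to Spry1 as 2.16, 2.44 and 2.95 in the dFLEx CDS tumors and as 0.436 and 0.644 in the KP tumors. Both ratios separated the groups without overlap, with little spread among the dFLEx CDS tumors. The margin was narrower for Spry4 to Spry2, at 0.550, 0.869 and 1.11 against 0.492 and 0.244, for Spred3 to Spred2, at 1.63, 1.10 and 0.656 against 0.0986 and 0.505, and for Spry2 to Spry1, at 3.93, 2.81 and 2.66 against 0.886 and 2.64. The groups overlapped for Spred2 to Spred1, at 0.562, 0.914 and 1.35 against 1.15 and 0.604, and for the summed Spred to the summed Sprouty level, at 0.575, 0.620 and 1.49 against 0.629 and 0.188. With 3 tumors against 2 there are 10 splits, too few for an exact permutation test of a single ratio to reach 0.05 (the smallest two-sided p, as double the smaller tail, is 0.2), so the ratios are a description.

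**Figure D5:**
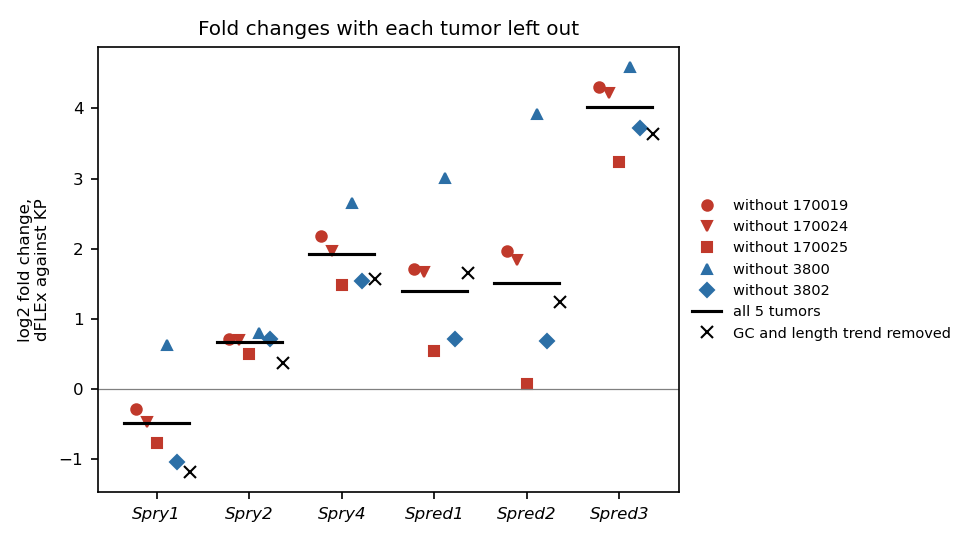
Log2 fold change (dFLEx CDS against KP, y axis) of each gene with all 5 tumors (black line), with each tumor left out (colored symbols) and with the trend of GC content and exon length removed (crosses). Spred3 stays between 3.23 and 4.59, Spred2 runs from 0.07 to 3.91 and Spry1 from -1.04 to 0.63 as tumors are left out.

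The rest of the pathway was read from lists, in which edgeR called 0 genes in either direction. Among 11 other feedback inhibitors of the pathway, 4 had a fold change above 0 and 7 below, with a median log2 fold change of -0.75. Dusp4, a phosphatase of ERK in the nucleus, was at 64.3, 202 and 838 CPM in the dFLEx CDS tumors and at 86.6 and 10.1 CPM in the KP tumors (log2 fold change 2.93, SE 1.32, edgeR adjusted p = 0.501). Errfi1, an inhibitor of the EGF receptor, was at 27.4, 41.8 and 49.4 CPM against 387 and 88.6 CPM (log2 fold change -2.59, SE 0.72, edgeR adjusted p = 0.219). Dusp5, another nuclear ERK phosphatase, was at 6.89, 10.2 and 11.2 CPM against 58.5 and 40.5 CPM (log2 fold change -2.39, SE 0.58, edgeR adjusted p = 0.166). Errfi1 and Dusp5 thus lay lower in every dFLEx CDS tumor than in either KP tumor, while Dusp4 overlapped through 3800. In all, 4 of the 11 genes lay lower in this way (Lrig1 and Rasa2 as well), against 11.7% of all genes. Dusp6 alone (1 of 11) lay higher in every dFLEx CDS tumor, against 13.7% of all genes.

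Of 11 genes commonly read as ERK output, 8 had a fold change above 0, and the median was 1.49 on the log2 scale; Dusp4 and Dusp6 are in this list and the former. Etv4, an ETS factor repressed by CIC, was at 4211, 3732 and 2724 CPM in the dFLEx CDS tumors and at 117 and 180 CPM in the KP tumors (log2 fold change 4.58, SE 0.64, edgeR adjusted p = 0.0517). Its relative Etv5 was at 757, 954 and 1869 CPM against 111 and 51.3 CPM (log2 fold change 3.88, SE 0.76, edgeR adjusted p = 0.109). After TMM scaling Etv4 was thus highest in 170019, where all 6 Sprouty and Spred genes were lowest among the dFLEx CDS tumors. With upper quartile scaling Spry2 was instead highest in 170019 among the dFLEx CDS tumors (113.7 CPM against 100.5 and 96.1 CPM). Spred1 was then slightly lower in 170024 than in 170019 (154.4 against 154.6 CPM). The study names Etv4, Etv5 and Dusp6 as targets of the fusion in these tumors, and elsewhere counts Dusp4 among the target genes.

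Genes of 15 proteins that bind, modify or act with Sprouty or Spred proteins were read as partners. They showed no common direction, with 7 fold changes above 0 and 8 below. The median was -0.10 on the log2 scale. Nf1, which Spred proteins recruit, was at 27.2, 49.2 and 153 CPM in the dFLEx CDS tumors and at 84.2 and 21.9 CPM in the KP tumors. It was chosen after its values were seen, and had the order over tumors of Spred1 and Spred2. Rasa1, another RAS inhibitor, was at 26.7, 25.5 and 50.7 CPM against 181 and 76.5 CPM (log2 fold change -1.91, SE 0.64, edgeR adjusted p = 0.313). The largest differences of the other partners were -1.44 for Cav1 and -1.14 for Cbl on the log2 scale, both with overlapping groups.

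Among 16 receptors, 11 fold changes were above 0 and 5 below. Ret, a receptor that Spry1 is known to restrain, was at 44.95, 95.7 and 262 CPM in the dFLEx CDS tumors and at 7.72 and 0.650 CPM in the KP tumors (log2 fold change 4.99, SE 1.34, edgeR adjusted p = 0.206). Fgfr3 was at 9.75, 7.28 and 7.90 CPM against 1.06 and 0.366 CPM (log2 fold change 3.51, SE 0.79, edgeR adjusted p = 0.139). Met, the hepatocyte growth factor receptor, was at 1.22, 4.25 and 5.62 CPM against 126 and 16.7 CPM (log2 fold change -4.27, SE 1.01, edgeR adjusted p = 0.159). Of 13 genes of the core pathway from RAS to ERK, 7 were above 0 and 6 below. The log2 fold change was 1.56 for the scaffold Ksr1 (SE 0.82, edgeR adjusted p = 0.614) and -0.66 for Nras (SE 0.50, edgeR adjusted p = 0.811).

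Markers of other cells differed in level between the groups, although edgeR called 0 of them, and their part in the levels of Sprouty and Spred genes was not tested. Muscle fiber markers (8 of 8 with a fold change above 0) summed to 10021 to 37738 CPM in the dFLEx CDS tumors and to 1433 to 4986 CPM in the KP tumors, with 170024 highest, where no family member was. Endothelial markers (8 of 8 above 0) summed to 402 to 819 CPM against 150 to 211 CPM. Fibroblast markers (6 of 6 above 0) summed to 3093 to 9799.6 CPM against 1429 to 2769 CPM. Pericyte markers (4 of 5 above 0) summed to 593 to 1076 CPM against 90.3 to 402 CPM. The highest sums of endothelial, fibroblast and pericyte markers were in 170025, as for 5 of the 6 family members and 19.4% of all genes. Within these lists the markers were split among the dFLEx CDS tumors. Esam, Emcn, Rgs5, Kcnj8, Dcn, Pi16 and Lum were higher in 170019 than in 170025, and the other markers were highest in 170025. Col1a1 (5105 CPM) and Col3a1 (4257 CPM) made up most of the fibroblast sum in 170025. Schwann cell and neural markers (4 of 4 above 0) summed to 12.005 to 45.1 CPM against 6.37 to 10.1 CPM, with 170024 highest. Macrophage markers (7 of 8 below 0) summed to 672 to 866 CPM against 1516 to 4562 CPM, lymphocyte markers (7 of 7 below 0) to 5.58 to 7.98 CPM against 8.11 to 54.8 CPM, and muscle stem and progenitor genes (4 of 4 below 0) to 9.50 to 35.4 CPM against 239 to 334 CPM. Each of these markers had counts in every tumor.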

How the data were processed

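The authors trimmed reads with Trimmomatic (0.39), aligned them with STAR (2.7.10a) to mm39 plus a construct contig, and deposited raw counts per gene from featureCounts (2.0.3). Per the file headers each mate was counted as a read, strand was ignored, and reads with several alignments or over several genes were not counted. Symbols were joined by Ensembl ID from GENCODE M39 (98.7% of features). Counts were summed per tumor, filtered with filterByExpr, TMM-scaled and tested with edgeR (4.0.16; glmQLFit, glmQLFTest; R 4.3.3), with Benjamini-Hochberg adjustment over 24743 genes at 0.05. Levels are TMM-scaled CPM of the sums, except for the transgene and the comparison of duplicates, which are CPM on library totals. The code was tested on simulated data. Other fits used DESeq2 (1.42.0) and limma (3.58.1). SE is the absolute log2 fold change over the square root of F; intervals are at 95% and, like the count limit, do not cover unseen spread between animals. Nothing in the labels says that each tumor number is a separate mouse, so p-values measure the spread between these tumors. Members, gene lists and the rule for named genes (all members, and the 3 largest absolute differences of each list, some of which are not reported here) were chosen with earlier results of these data known. The trend with GC content and exon length was removed by loess (span 0.3) on 15219 genes. For tumor 3802, 1 of the duplicates was not analysed here.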

Additional observations from a re-analysis of the deposited data

How the results depend on the processing

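Over 18 alternatives, 96 of the 108 fold changes of the 6 genes kept their direction and their side of the threshold, 11 passed the threshold as well, and 1 reversed: Spry1, -1.04 on the log2 scale without tumor 3802, was 0.63 without tumor 3800. The number of genes called at an adjusted p under 0.05, 45 with edgeR on tumor sums, was 3344 (edgeR) and 5042 (DESeq2) with libraries as independent samples, 543 with limma-voom, 1516 with DESeq2 on tumor sums, 880 with no filter on low counts, 80 when genes had to average 1 CPM, 11 when the dispersion was robust and 383 with the trend of GC content and exon length removed (chosen after seeing the data). Leaving out a tumor gave 0 to 414: 0 without 170019 or 170024 (edgeR; 1939 and 1414 genes at an unadjusted p under 0.05), 9 without 170025, 8 without 3800 and 414 without 3802. Of the 6 family genes, 0 were called by edgeR on tumor sums and without any 1 tumor. The count was 2 (edgeR) and 3 (DESeq2) with libraries as independent samples, and 1, always Spred3, with limma-voom, DESeq2 on tumor sums, no filter, or the trend removed. Spred3 kept a fold change of 3.23 to 4.59 on the log2 scale without any 1 tumor (edgeR adjusted p 0.147 to 0.278), and Spry4 one of 1.48 to 2.65. The cause of these differences was not tested.

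With the duplicate number as a replicate block over 9 libraries, edgeR called 2476 genes and 2 of the 6 (Spry4 and Spred3). The numbers do not pair tumors: the log2 ratio of duplicates correlated at -0.00833 to 0.0716 over 18595 genes in 6 pairs of tumors.

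Scaling moved the split of calls: 25 higher and 20 lower with TMM, 14 and 20 with library totals, 17 and 33 with upper quartile scaling, with the directions of all 6 genes kept. Groups that did not overlap under TMM did overlap for Spry2 with library totals or upper quartile scaling. Each family gene was above the count limit in every tumor, and depth was not compared with the number of tumors as a limit on precision.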

Other observations

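For each family gene the genes with the most similar pattern over the 5 tumors were sought among 15264 genes averaging 1 CPM or more, by the root mean square distance of centered log2 CPM; with 5 tumors and so many genes, near matches are to be found for most patterns. Nearest to Spred3 were Sncaip, which encodes the synuclein partner synphilin, at a distance of 0.153, then Mpp2 (0.175) and B3gnt3 (0.189). Sncaip was at 18.7, 29.2 and 82.7 CPM in the dFLEx CDS tumors and at 3.61 and 2.40 CPM in the KP tumors. Nearest to Spry4 were Trappc9 (0.0709), Sorbs3 (0.0898) and Eln, the gene of elastin (0.0944). Nearest to Spred2 were Hivep1 (0.185), Ccnd1, the gene of cyclin D1 (0.191), and Armcx4 (0.196). Ccnd1 was at 244, 483 and 1882 CPM in the dFLEx CDS tumors and at 484 and 84.1 CPM in the KP tumors.

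Spry1 lay nearest to Naa35 (0.0545), Spry2 to Pold3 (0.0387) and Spred1 to Spidr (0.0939). Within the family, Spred1 and Spred2 were the closest pair (0.496), followed by Spry4 and Spred1 (0.511), and Spry1 and Spred3 were the farthest apart (2.09).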
